A study of Mus musculus with 12 samples.

Results

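Protocadherins, the largest subgroup of the cadherin adhesion proteins, were followed here in the RNA of mouse brain myelin. Their members were every listed gene whose symbol starts with Pcdh, which gave 71 of 21937 genes: 15 of the alpha cluster, 22 of the beta cluster, 22 of the gamma cluster, 4 delta-1 genes, 5 delta-2 genes and 3 others. RNA had been sequenced from a light membrane fraction of brain in which myelin was enriched, taken from male wild type c57Bl6/N mice. Ages were 18 days (P18) and 75 days (P75) after birth, 6 months and 24 months, with 3 samples for each. All groups share sex, strain and genotype and received no treatment that the labels name. The labels do not say whether the samples of an age are separate animals, so the spread behind each p-value may be technical. Libraries ranged from 20299052 to 27214385 reads assigned to genes. Values are read counts that the authors normalised for depth. The fraction is bulk material, so fewer cells of a type and less RNA per cell cannot be told apart. It held the markers of mature oligodendrocytes at 11.02 to 23.1% of all counts at P18 and 6.41 to 8.66% at 24 months, but also those of neurons at 0.698 to 1.01% and 0.844 to 0.934% and those of astrocytes at 0.495 to 0.608% and 0.627 to 0.675%. Which of these cells the protocadherin RNA came from was not tested.

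Protocadherins sit in the cell membrane with a row of cadherin repeats outside and bind the same protein on a neighbouring cell. The alpha, beta and gamma genes lie side by side on chromosome 18, and single neurons switch on small random combinations of their promoters, which gives a cell an identity by which its own branches recognise and avoid each other. Each alpha and gamma protein joins its own first exon to constant exons shared by its cluster, whereas a beta gene is a single exon. The delta protocadherins are single genes scattered over the genome that act in axon sorting, cell movement and synapse formation. In brain these genes are best known from neurons and also from astrocytes. Reads in the shared constant exons of the alpha and gamma genes, and in stretches that near-identical beta paralogs share, could have been dropped or split in the counting, so levels of single clustered genes are uncertain. Read counts also scale with gene length, and levels are therefore compared between ages and not between genes.

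Protocadherin RNA was higher in adult than in young myelin fractions, and the clusters followed different courses. The 71 genes summed to 7236 ± 72.1 normalised counts in the P18 samples, 10257 ± 656 in the P75 samples, 16419 ± 1513 in the 6-month samples and 17897 ± 1502 in the 24-month samples (SD over 3 samples). Delta-1 and delta-2 genes held most of these counts, with mean sums of 2243 and 3068 at P18 and 4490 and 7017 at 24 months. The gamma sum stood highest at 6 months and the beta sum was higher at each age than at the one before. Of the 71 genes 56 reached a value of 10 in at least 3 samples and were tested with limma on log2(value + 1), a scale that understates the fold change of genes with low values. A call is an adjusted p under 0.05 over all 14987 tested genes.

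**Figure D1:**
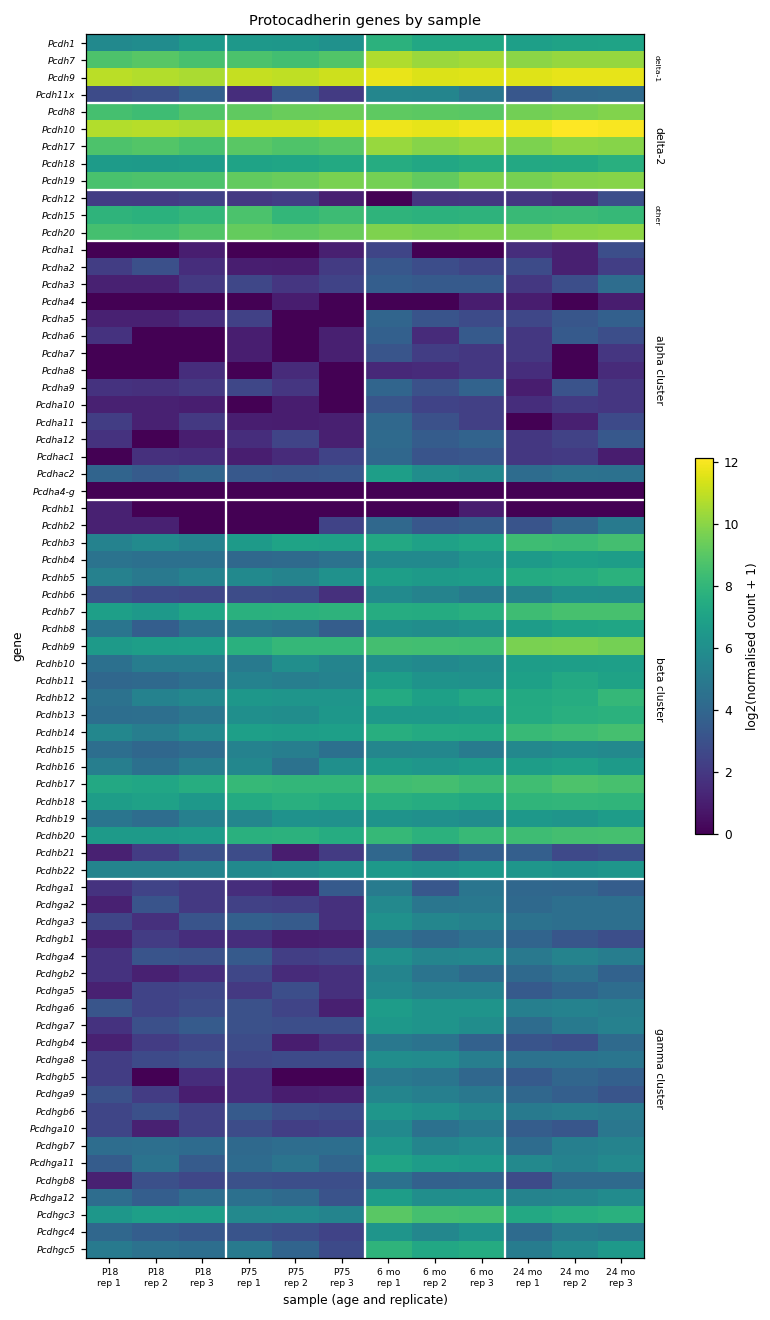
Level of each of the 71 protocadherin genes (rows, grouped by subfamily and, in the clusters, in chromosomal order) in each of the 12 samples (columns), as log2(normalised count + 1) in colour. The gamma rows brighten at 6 months, and most beta rows brighten step by step to 24 months. Most alpha rows stay low, with a median gene mean of 1.13 normalised counts at P18 and 7.9 at 6 months.

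All 56 tested members differed at some age in the limma F test, against 77.4% of all tested genes. Of the tested members 21 rose and 2 fell at P75 against P18, while 21.7% of all tested genes rose and 18.7% fell. Between P75 and 6 months 45 members rose and 1 fell, against 27.1% and 25.4% of all tested genes. In the last comparison, 24 months against 6 months, 12 rose and 13 fell, against 10.8% and 8.34%. Without 6 months replicate 1 or 2 these 13 became 3 or 6, and without 24 months replicate 1 or 2 they became 5 or 4. Over all tested genes, the 1250 that fell became 492 or 655 and 554 or 538 in the same fits. The 13 became 17 in edgeR and 18 after quantile normalization, where the 1250 became 1275 and 1492. The 12 that rose became 7 without 6 months replicate 2 and 8 without 24 months replicate 2. In these fits the 1626 of all tested genes that rose became 840 and 692. Median log2 fold changes of the tested members in the successive comparisons were 0.41, 1.63 and -0.25, and those of all tested genes 0.02, 0.00291 and 0.03. No tested member had its highest mean at P18, where 32.7% of all tested genes had theirs, and 1 had it at P75 (20.1%). Every P75 sample lay above every P18 sample in 20 tested members, against 24.7% of all tested genes, and every 6-month sample below every P75 sample in 3, against 30.6%. Comparisons at successive ages share the samples of the age between them, so each is given by its own values.

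The filter could favour members that are high at one age. Of the tested members 10 had all 3 samples at 10 or more at 1 age only, and for 9 of these that age was 6 months. With no filter 70 members could be tested, and 52 rose and 1 fell at 6 months against P75, while 21.3% and 20.2% of all genes did so. Pcdha12 and Pcdhb21 reached the minimum value in 3 samples, just inside the filter, and Pcdha3, Pcdha5 and Pcdha9 in 2, just outside it.

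**Figure D2:**
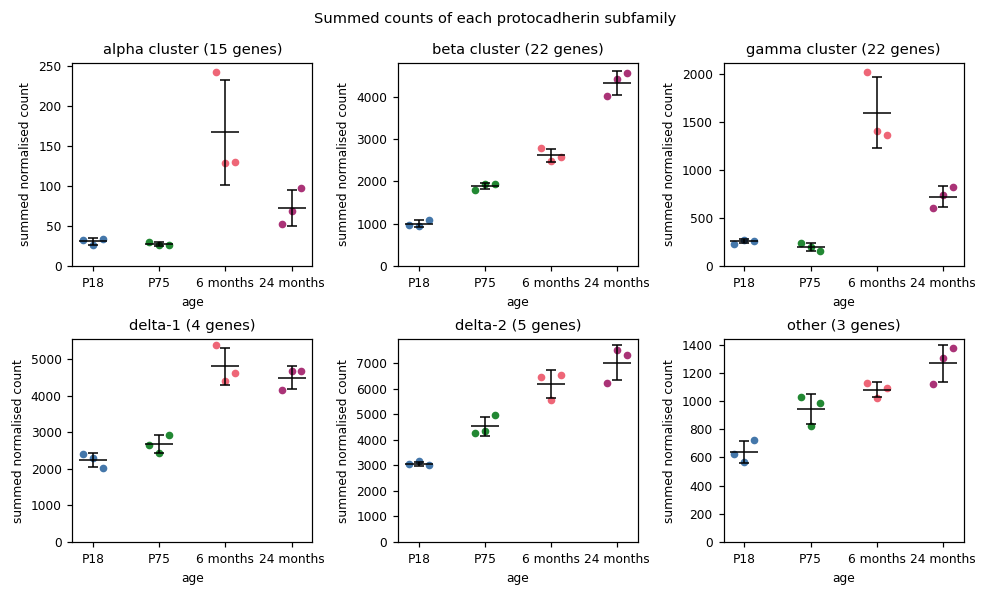
Summed normalised counts of each subfamily at the 4 ages, with 1 point per sample and the mean ± SD as black bars. The 3 samples at 6 months sit at 1361 to 2017 for the gamma cluster, above every other age, while the beta sums climb to 4011 to 4563 at 24 months.

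Gamma cluster genes rose together at 6 months. Their 22 genes comprise 12 of type A, 7 of type B and 3 of type C, and type C genes are the ones that neurons express without the random choice. Summed gamma counts were 232 to 272 in P18 samples, 154 to 236 in P75 samples, 1361 to 2017 in 6-month samples and 606 to 821 in 24-month samples. At 6 months against P75 21 of 22 rose and 1 did not pass, where 27.1% of all tested genes rose and 25.4% fell. The median log2 fold change of the 22 was 3.01, with a range of 1.10 to 4.24. The gene that did not pass was Pcdhgb8, listed in RefSeq as a transcribed pseudogene (1.10 ± 0.48, limma adjusted p = 0.0658), and it is named here after its value was seen. For 21 of 22 genes every 6-month sample lay above every P75 sample, against 31.7% of all tested genes. In 17 genes the 6-month samples lay above all 9 samples of the other ages, against 7.75%, and the mean was highest at 6 months in all 22, against 22.4%. All 22 gamma genes passed the filter, 7 of them with all 3 samples at 10 or more at 6 months only, so these shares cannot be read as independent of the filter. Over all 18834 genes that could be tested with no filter, the same shares were 6.29% and 21.5%. Among the 15 other gamma genes the counts were 13 and 15.

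Pcdhgc3, a type C gene, had P18 values of 84.4, 113 and 110.5, P75 values of 52.1, 54.7 and 44.2, 6-month values of 524, 382 and 351 and 24-month values of 158, 187 and 207. Its P75 samples lay below, and its 6-month samples above, all samples of the other ages. Pcdhgc3 fell by 1.01 ± 0.17 at P75 against P18 (limma adjusted p = 2.02e-04). It rose by 3.02 ± 0.17 at 6 months against P75 (limma adjusted p = 7.34e-09). It fell by 1.17 ± 0.17 at 24 months against 6 months (limma adjusted p = 5.93e-04). These changes, and those that follow, are log2 fold changes ± SE with 3 samples at each age. Pcdhgc5, whose promoter is the last of the cluster, had P18 values of 30.9, 22.6 and 20.1, P75 values of 30.1, 13.9 and 5.53, 6-month values of 234, 154 and 179 and 24-month values of 33.7, 56.2 and 94.4. Its 6-month samples lay above every other sample, and its 24-month samples above those of P18 and P75. Pcdhgc5 did not pass at P75 against P18, with a log2 fold change of -0.80 ± 0.43 (limma adjusted p = 0.155). It rose by 3.70 ± 0.43 at 6 months against P75 (limma adjusted p = 4.40e-06). It fell by 1.71 ± 0.43 at 24 months against 6 months (limma adjusted p = 0.0135). Pcdhgc5 lost its call at 24 months against 6 months on leaving out 6 months replicate 1 (0.0674) or 24 months replicate 1 (0.0716); adjusted p ran from 0.00240 to 0.0716 over the alternatives. Pcdhgc5 was called at P75 against P18 on leaving out P75 replicate 1 (0.0137); adjusted p ran from 0.0137 to 0.683 over the alternatives.

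Pcdhga11 had P18 values of 10.7, 23.7 and 10.04, P75 values of 18.04, 24.1 and 14.4, 6-month values of 136, 103 and 93.4 and 24-month values of 51.5, 41.1 and 51.8. Pcdhga12 had P18 values of 19.01, 11.3 and 19.1, P75 values of 21.04, 17.6 and 7.74, 6-month values of 106, 63.02 and 66.2 and 24-month values of 41.6, 45.4 and 57.4. Pcdhga6, with the largest rise of the cluster, had P18 values of 8.32, 4.52 and 6.03, P75 values of 7.01, 4.64 and 1.11, 6-month values of 104, 77.2 and 76.9 and 24-month values of 36.6, 41.1 and 36.1. All 3 are type A genes, and in each the 6-month samples lay above all others, the 24-month samples came next, and the P18 and P75 samples overlapped. Pcdhga6 rose by 4.24 ± 0.39 at 6 months against P75 (limma adjusted p = 5.02e-07). It fell by 1.15 ± 0.39 at 24 months against 6 months (limma adjusted p = 0.0475). Pcdhga11 rose by 2.51 ± 0.29 at 6 months against P75 (limma adjusted p = 3.85e-06). It fell by 1.18 ± 0.29 at 24 months against 6 months (limma adjusted p = 0.0117). Pcdhga12 rose by 2.34 ± 0.32 at 6 months against P75 (limma adjusted p = 2.18e-05). A log2 fold change of -0.67 ± 0.32 at 24 months against 6 months did not pass (limma adjusted p = 0.157). Pcdhga6 lost its call at 24 months against 6 months on leaving out P75 replicate 2 (0.0533), 6 months replicate 1 (0.170), 6 months replicate 2 (0.0959), 6 months replicate 3 (0.0757), 24 months replicate 1 (0.117), 24 months replicate 2 (0.102) or 24 months replicate 3 (0.104), or with a pseudocount of 0.5 (0.0684), with no filter (0.0645) or with the stricter filter (0.0529); adjusted p ran from 2.16e-04 to 0.170 over the alternatives. Pcdhga6 was called at P75 against P18 on leaving out P75 replicate 1 (0.0409); adjusted p ran from 0.0409 to 0.855 over the alternatives. Pcdhga11 lost its call at 24 months against 6 months on leaving out 6 months replicate 1 (0.0672) or 24 months replicate 2 (0.0565); adjusted p ran from 7.10e-05 to 0.0672 over the alternatives. Pcdhga11 was called at P75 against P18 on leaving out P18 replicate 2 (0.0274); adjusted p ran from 0.0274 to 0.638 over the alternatives.

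Few gamma genes passed the test between P18 and P75, where 21.7% of all tested genes rose and 18.7% fell. Of the gamma genes 0 rose, 2 fell and 20 did not pass, with a median of -0.02. Both that fell, Pcdhgc3 and Pcdhgc4, are type C. Pcdhgc4, named after its value was seen, had P18 values of 15.4, 11.3 and 9.04, P75 values of 8.02, 6.49 and 4.42, 6-month values of 80.4, 48.8 and 71.04 and 24-month values of 17.8, 32.4 and 26.8. Pcdhgc4 fell by 0.82 ± 0.31 at P75 against P18 (limma adjusted p = 0.0417). Pcdhgc4 lost its call on leaving out P18 replicate 1 (0.155), P18 replicate 2 (0.0736), P75 replicate 2 (0.0690), P75 replicate 3 (0.155), 6 months replicate 1 (0.0505), 6 months replicate 3 (0.0564) or 24 months replicate 3 (0.0507), and with a pseudocount of 4 (0.0631), no filter (0.0551), the replicate block (0.0534), edgeR (0.120) or DESeq2 (0.137). It kept the call in 7 of the 19 alternatives that tested it, with adjusted p from 0.0213 to 0.155, and it did not pass the stricter filter. Of the 5 type C genes of the alpha and gamma clusters 4 were tested, and their log2 fold changes at P75 against P18 ran from -1.01 to -0.49. Type A and type B genes had medians of 0.05 and -0.03 in that comparison, and 0 of either type rose and 0 fell. At 6 months against P75 the medians were 3.02 for type A, 2.86 for type B and 3.11 for type C.

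At 24 months against 6 months 11 gamma genes fell, 0 rose and 11 did not pass. Among all tested genes 8.34% fell and 10.8% rose. The gamma genes had a median of -1.04 and a range of -1.71 to -0.31. For 17 of 22 every 24-month sample lay below every 6-month sample, against 19.9% of all tested genes. The 24-month samples still lay above all P75 samples in 20 of 22, against 29.2%. All 4 tested type C genes fell at 24 months, with a median of -1.50, as did 6 of 12 type A and 2 of 7 type B genes. Replicate 1 of 6 months was the highest of its age in all 22 gamma genes. Without it 21 gamma genes rose at 6 months against P75, as did 3406 of all 14961 genes then tested. At 24 months against 6 months 2 gamma genes fell without it, in place of 11. Leaving out 6 months replicate 2 made that last count 5, 24 months replicate 1 made it 4, and 24 months replicate 2 made it 3. Over all tested genes, the 1250 that fell became 492, 655, 554 and 538 in the same fits. Calls were thus lost in general with fewer samples, and these counts cannot measure the part of replicate 1. The 2 gamma genes that fell at P75 against P18 became 1 to 4 on leaving out single samples, the highest number without P75 replicate 1. It was 3 without P18 replicate 3, and 1 without P18 replicate 1 or 2, P75 replicate 2 or 3, 6 months replicate 1 or 3 or 24 months replicate 3, and Pcdhgc3 fell in every alternative.

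**Figure D3:**
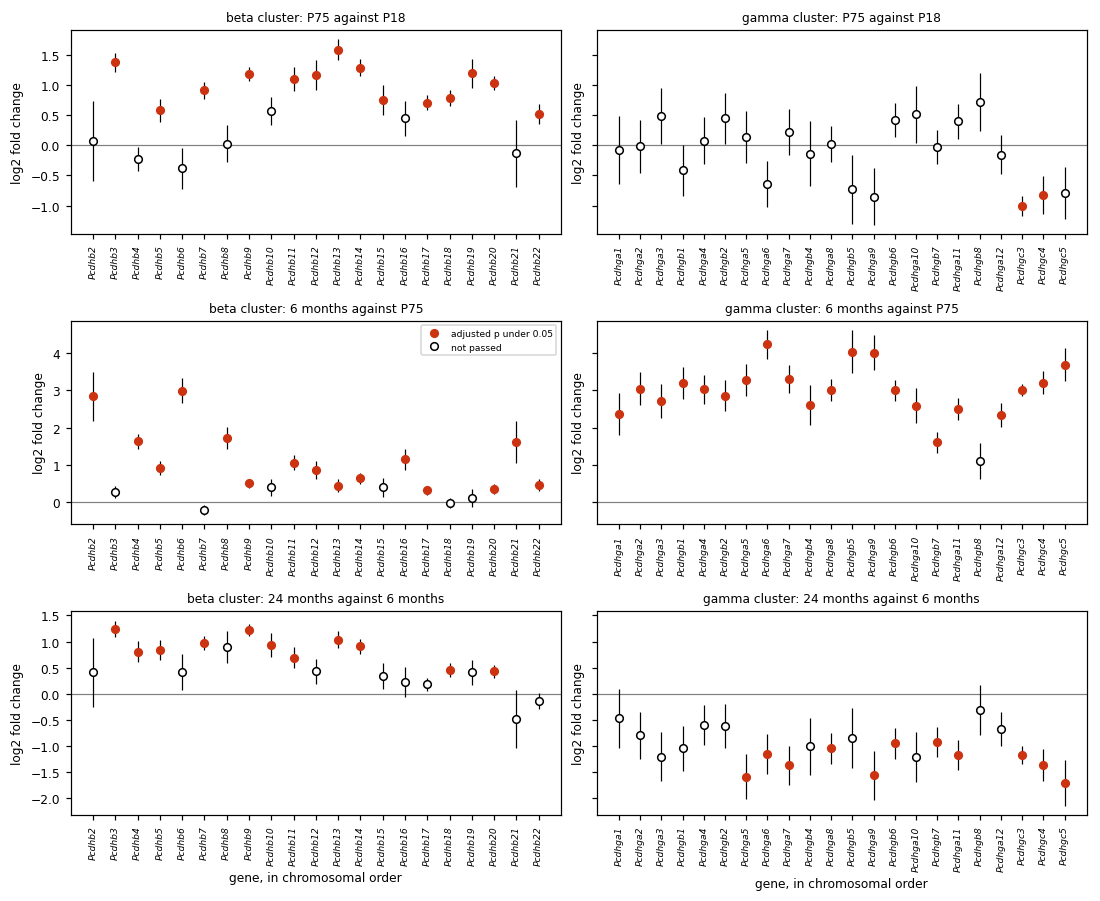
Log2 fold change of each tested beta gene (left) and gamma gene (right) in chromosomal order, with bars for the SE, at P75 against P18 (top), 6 months against P75 (middle) and 24 months against 6 months (bottom). Filled points passed at an adjusted p under 0.05. Gamma genes lie at 1.10 to 4.24 in the middle panel and below 0 in the bottom one, and the first beta genes alternate between neighbours.

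Alpha cluster genes were near the limit of detection, and their summed counts, too, were highest at 6 months. The sums were 25.99 to 34.1 in P18 samples, 25.96 to 30.1 in P75 samples, 129 to 243 in 6-month samples and 52.5 to 97.2 in 24-month samples. The 6-month samples lay above all others, and the highest of them was replicate 1, as in the gamma cluster. Pcdhac2, a type C gene, had P18 values of 14.3, 10.2 and 14.1, P75 values of 9.02, 8.34 and 8.84, 6-month values of 109.7, 60.4 and 48.7 and 24-month values of 18.8, 22.7 and 22.2, with means of 72.9 ± 32.4 at 6 months against 8.73 ± 0.352 at P75. Pcdhac2 did not pass at P75 against P18, with a log2 fold change of -0.49 ± 0.28 (limma adjusted p = 0.181). It rose by 2.84 ± 0.28 at 6 months against P75 (limma adjusted p = 1.13e-06). It fell by 1.65 ± 0.28 at 24 months against 6 months (limma adjusted p = 0.00184). Pcdha12 had P18 values of 2.38, 0 and 1, P75 values of 2, 4.64 and 1.11, 6-month values of 17.1, 10.7 and 13.6 and 24-month values of 2.97, 4.32 and 9.26, and its 6-month samples lay above all others. Only these 3 samples reached the minimum value, so Pcdha12 passed the filter through the age at which it was high. Pcdha12 rose by 2.14 ± 0.56 at 6 months against P75 (limma adjusted p = 0.00413). It did not pass at 24 months against 6 months, with a log2 fold change of -1.28 ± 0.56 (limma adjusted p = 0.115). Pcdha12 was called at 24 months against 6 months after quantile normalization (0.0485) or in edgeR (0.0498); adjusted p ran from 0.0485 to 0.317 over the alternatives.

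Pcdha3 and Pcdha5, 2 further alpha genes, did not pass the filter and were not tested. Pcdha3 had P18 values of 1.19, 1.13 and 3.01, P75 values of 5.01, 2.78 and 4.42, 6-month values of 11.4, 9.76 and 9.73 and 24-month values of 2.97, 6.49 and 19.4. Pcdha5 had P18 values of 1.19, 1.13 and 2.01, P75 values of 4.01, 0 and 0, 6-month values of 14.6, 7.99 and 5.84 and 24-month values of 4.95, 8.65 and 12.03. Both had higher values at 6 months than at P18, and their 24-month values overlapped those of 6 months. With no filter 14 alpha genes could be tested. At 6 months against P75 10 of them rose and 0 fell, where 21.3% of all genes rose and 20.2% fell. At 24 months against 6 months 3 fell and 0 rose, where 5.76% of all genes fell and 7.41% rose. Of the 15 listed alpha genes 12 had their highest mean at 6 months, against 21.5% of all genes with no filter. The alpha genes that did not pass the filter gave at most 82 reads each over all 12 samples, so these counts rest on few reads. Pcdha4 gave 4 reads over all 12 samples, and a second entry for it, Pcdha4-g, was at 0 in every sample, which allows up to 3 reads in each. These entries overlap by name, and low expression of Pcdha4 cannot be told apart from reads lost between them.

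Beta cluster genes rose with age and were highest at 24 months. Their sums were 938 to 1095 in P18 samples, 1805 to 1947 in P75 samples, 2479 to 2788 in 6-month samples and 4011 to 4563 in 24-month samples, with no overlap between any of the ages. Of the 22 genes 21 were tested, and Pcdhb1 gave 2 reads over all samples. Of these 14 rose, 0 fell and 7 did not pass at P75 against P18, with a median log2 fold change of 0.75, where 21.7% of all tested genes rose. In all 15 rose and 0 fell at 6 months against P75 (median 0.51, and 27.1% of all tested genes rose). Of the 21, 11 rose and 0 fell at 24 months against 6 months (median 0.46, and 10.8% of all tested genes rose). Leaving out 6 months replicate 2 made the last count 6, and 24 months replicate 2 made it 7. In these fits the 1626 of all tested genes that rose became 840 and 692. The mean was highest at 24 months in 19 of 21 genes, against 24.9% of all tested genes. In 14 the 24-month samples lay above all 9 others, against 9.37%, and in 5 every age lay above the one before without overlap, against 3.16%.

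Pcdhb9 had P18 values of 98.6, 111 and 115, P75 values of 206, 272 and 268, 6-month values of 368, 349 and 338 and 24-month values of 821, 849 and 789. Its samples were higher at each age than at the age before, without overlap. Pcdhb9 rose by 1.19 ± 0.11 at P75 against P18 (limma adjusted p = 1.58e-06). It rose by 0.51 ± 0.11 at 6 months against P75 (limma adjusted p = 0.00139). It rose by 1.22 ± 0.11 at 24 months against 6 months (limma adjusted p = 2.55e-05). Pcdhb3 had P18 values of 40.4, 54.2 and 40.2, P75 values of 98.2, 133 and 124, 6-month values of 161, 123 and 143 and 24-month values of 331, 312 and 369. Pcdhb13 had P18 values of 20.2, 20.3 and 27.1, P75 values of 65.1, 60.3 and 84.02, 6-month values of 92.6, 91.4 and 100.2 and 24-month values of 173, 200.03 and 216. Pcdhb3 showed the largest rise of the cluster at 24 months and Pcdhb13 the largest at P75, each without overlap with the age before. Pcdhb3 rose by 1.38 ± 0.16 at P75 against P18 (limma adjusted p = 7.88e-06). Its log2 fold change of 0.27 ± 0.16 at 6 months against P75 did not pass (limma adjusted p = 0.163). It rose by 1.24 ± 0.16 at 24 months against 6 months (limma adjusted p = 2.51e-04). Pcdhb13 rose by 1.59 ± 0.17 at P75 against P18 (limma adjusted p = 4.23e-06). It rose by 0.45 ± 0.17 at 6 months against P75 (limma adjusted p = 0.0357). It rose by 1.04 ± 0.17 at 24 months against 6 months (limma adjusted p = 0.00142). Pcdhb13 lost its call at 6 months against P75 on leaving out P75 replicate 1 (0.0948), P75 replicate 2 (0.138), 6 months replicate 1 (0.0694), 6 months replicate 2 (0.0621) or 6 months replicate 3 (0.101), or with no filter (0.0590) or after quantile normalization (0.0615); adjusted p ran from 0.0139 to 0.138 over the alternatives.

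Pcdhb17 had P18 values of 160.4, 146 and 191, P75 values of 284, 263 and 263, 6-month values of 346, 367 and 305 and 24-month values of 339, 426 and 393. Pcdhb20 had P18 values of 97.4, 96.04 and 104, P75 values of 208, 224 and 182, 6-month values of 276, 223 and 292 and 24-month values of 329.9, 361 and 373. Pcdhb7 had P18 values of 116, 91.5 and 139.6, P75 values of 205, 211 and 232, 6-month values of 183, 177 and 204 and 24-month values of 331, 387 and 394. All 3 were higher at P75 than at P18 without overlap. Pcdhb17 rose by 0.71 ± 0.12 at P75 against P18 (limma adjusted p = 2.61e-04). It rose by 0.33 ± 0.12 at 6 months against P75 (limma adjusted p = 0.0342). A log2 fold change of 0.18 ± 0.12 at 24 months against 6 months did not pass (limma adjusted p = 0.304). Pcdhb20 rose by 1.03 ± 0.12 at P75 against P18 (limma adjusted p = 1.10e-05). It rose by 0.36 ± 0.12 at 6 months against P75 (limma adjusted p = 0.0228). It rose by 0.43 ± 0.12 at 24 months against 6 months (limma adjusted p = 0.0235). Pcdhb7 rose by 0.91 ± 0.14 at P75 against P18 (limma adjusted p = 1.00e-04). The test was not passed at 6 months against P75, with a log2 fold change of -0.20 ± 0.14 (limma adjusted p = 0.237). It rose by 0.97 ± 0.14 at 24 months against 6 months (limma adjusted p = 5.93e-04). Pcdhb17 lost its call at 6 months against P75 on leaving out P75 replicate 2 (0.0864), P75 replicate 3 (0.0836), 6 months replicate 1 (0.0892) or 6 months replicate 2 (0.129), or after quantile normalization (0.0632); adjusted p ran from 0.0165 to 0.129 over the alternatives. Pcdhb20 lost its call at 6 months against P75 on leaving out P75 replicate 3 (0.101), 6 months replicate 1 (0.0805) or 6 months replicate 3 (0.106); adjusted p ran from 0.00687 to 0.106 over the alternatives. Pcdhb20 lost its call at 24 months against 6 months on leaving out 6 months replicate 1 (0.0511), 6 months replicate 2 (0.118), 24 months replicate 2 (0.0806) or 24 months replicate 3 (0.0710); adjusted p ran from 0.0101 to 0.118 over the alternatives.

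Neighbours at the start of the beta cluster differed in when they rose, a pattern chosen after its values were seen. In chromosomal order Pcdhb3, Pcdhb5, Pcdhb7 and Pcdhb9 each lie next to Pcdhb2, Pcdhb4, Pcdhb6 and Pcdhb8. At P75 against P18 all 4 of Pcdhb3, Pcdhb5, Pcdhb7 and Pcdhb9 rose, by 0.58 to 1.38, while 0 of Pcdhb2, Pcdhb4, Pcdhb6 and Pcdhb8 rose or fell (log2 fold changes of -0.38 to 0.07). At 6 months against P75 all 4 of Pcdhb2, Pcdhb4, Pcdhb6 and Pcdhb8 rose, by 1.64 to 2.999, and 2 of the other 4 did (log2 fold changes of -0.20 to 0.92). Of all tested genes 21.7% rose at P75 against P18 and 27.1% at 6 months against P75. Pcdhb2 had P18 values of 1.19, 1.13 and 0 and P75 values of 0, 0 and 4.42, near the floor. It reached the minimum value in 4 samples, all of 6 or 24 months. Pcdhb2 and Pcdhb6 thus passed the filter only through the ages at which they were high. Pcdhb6, with the largest rise of the cluster, had P18 values of 7.13, 5.65 and 5.02, P75 values of 6.01, 5.56 and 2.21, 6-month values of 54.4, 42.6 and 30.2 and 24-month values of 41.6, 65.95 and 62.02. Its 6-month and 24-month samples overlapped and lay above the others, and it rose by 2.999 ± 0.34 at 6 months against P75 (limma adjusted p = 3.05e-06). Pcdhb8 had P18 values of 24.9, 11.3 and 23.1, P75 values of 27.1, 23.2 and 11.1, 6-month values of 66.6, 61.2 and 69.1 and 24-month values of 103, 131 and 138, with both of the earlier ages overlapping. Pcdhb5 had P18 values of 39.2, 29.4 and 41.2, P75 values of 54.1, 42.6 and 70.8, 6-month values of 110.5, 98.5 and 105 and 24-month values of 169, 179 and 218, with no overlap between ages. The difference between the 2 sets of neighbours was not tested. RefSeq gives Pcdhb4, Pcdhb6 and Pcdhb8 the older symbols Pcdhb5A, Pcdhb5B and Pcdhb5C, and Pcdhb5, Pcdhb7 and Pcdhb9 the older symbols Pcdhb4A, Pcdhb4B and Pcdhb4C. Pcdhb10, Pcdhb11 and Pcdhb12, once Pcdhb5D to Pcdhb5F, had log2 fold changes of 0.57, 1.10 and 1.17 at P75 against P18, of which Pcdhb11 and Pcdhb12 passed.

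The share of the cluster counts that each cluster held differed between ages. Of all counts in the 3 clusters, gamma genes had 19.9 ± 1.88% in P18 samples, 9.29 ± 2.10% in P75 samples, 36.1 ± 3.42% in 6-month samples and 14.002 ± 0.999% in 24-month samples (SD over 3 samples). Beta genes took 77.8 ± 1.64%, 89.4 ± 2.20%, 60.1 ± 4.33% and 84.6 ± 1.32% at the same ages. Reads in the shared alpha and gamma exons could have been lost in the counting, so shares are compared between ages and not between clusters. The 6-month samples held the largest gamma share, 33.4 to 39.96%, and the P75 samples the smallest, 7.22 to 11.4%.

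**Figure D4:**
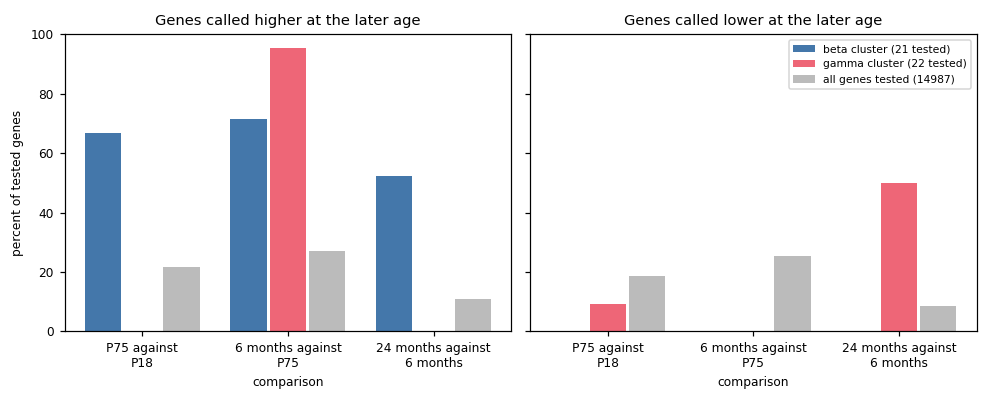
Percent of tested genes called higher (left) or lower (right) in each comparison, for the beta cluster, the gamma cluster and all 14987 tested genes. Beta bars stand only in the left panel, and the gamma bar is highest at 6 months against P75 with 21 of 22 genes, against 27.1% of all tested genes.

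The delta genes rose too, some by P75 and others only by 6 months. All 4 delta-1 genes rose at 6 months against P75, with a median of 1.45, and 1 had risen at P75 against P18. Of the 5 delta-2 genes 4 rose at P75 against P18 (median 0.56) and 2 at 6 months against P75 (median 0.24). At 24 months against 6 months 1 delta-1 gene fell and 1 delta-2 gene rose. Of all tested genes 21.7% rose at P75, 27.1% rose at 6 months, and 10.8% rose and 8.34% fell at 24 months, so the smaller of these counts lie near the background. The course of each gene is given next, with the promoter letters of 4 of them.

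Promoters of 4 genes are printed because these non-clustered genes took contrasting courses, and they were chosen after their values were seen. Pcdh7 and Pcdh17 rose at 6 months against P75. Pcdh8 and Pcdh15 had negative fold changes there, of which only that of Pcdh15 passed. RefSeq promoter windows (build GRCm38.p6, not the mm9 build of the counts) were matched by symbol, and each printed sequence is the 250 bases before the start on the gene's strand, 5′ to 3′, with every CG dinucleotide in capitals. They are Pcdh7 (chr5:57717831-57718080, plus strand, 7 CG), Pcdh17 (chr14:84443313-84443562, plus strand, 21 CG), Pcdh8 (chr14:79771313-79771562, minus strand, 11 CG) and Pcdh15 (chr10:73821617-73821866, plus strand, 6 CG).
Pcdh7: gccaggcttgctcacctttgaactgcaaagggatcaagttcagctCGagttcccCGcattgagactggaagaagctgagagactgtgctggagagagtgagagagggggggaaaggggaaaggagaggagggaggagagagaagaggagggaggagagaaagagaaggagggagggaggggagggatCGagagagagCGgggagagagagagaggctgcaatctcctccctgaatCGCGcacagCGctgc
Pcdh17: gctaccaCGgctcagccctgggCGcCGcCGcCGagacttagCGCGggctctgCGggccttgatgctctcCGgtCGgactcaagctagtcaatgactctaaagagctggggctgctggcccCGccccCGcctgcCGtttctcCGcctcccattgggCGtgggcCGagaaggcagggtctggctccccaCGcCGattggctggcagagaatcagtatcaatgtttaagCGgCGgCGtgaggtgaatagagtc
Pcdh8: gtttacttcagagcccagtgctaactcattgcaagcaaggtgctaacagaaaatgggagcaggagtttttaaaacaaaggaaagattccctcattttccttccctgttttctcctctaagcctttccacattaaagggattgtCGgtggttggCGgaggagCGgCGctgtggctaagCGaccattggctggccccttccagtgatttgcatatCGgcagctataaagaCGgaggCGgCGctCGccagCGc
Pcdh15: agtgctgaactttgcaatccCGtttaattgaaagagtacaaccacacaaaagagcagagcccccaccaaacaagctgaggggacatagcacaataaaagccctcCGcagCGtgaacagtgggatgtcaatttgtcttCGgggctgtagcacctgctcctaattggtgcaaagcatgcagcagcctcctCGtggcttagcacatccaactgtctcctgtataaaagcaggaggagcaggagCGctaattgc
RefSeq windows of 9 members were searched, 10 windows in all. The letters TATAAA, on either strand, stand in 2 of the 10 windows, those of Pcdh8 and Pcdh15. They stand in none of the windows of Pcdh7, Pcdh9, Pcdh10, Pcdh17, Pcdh18, Pcdh19 and Pcdh20. Pcdh18 and Pcdh19, like Pcdh8, were not called higher at 6 months against P75. TATAAA stands in 12.4% of all 32851 windows, and whether it goes with the course of a gene was not tested. CGCT, the core of the element that clustered promoters share, was searched on either strand and stands in all 10, as it does in 55.7% of all windows. A CGCT holds 1 of the counted CG on the strand where it is read. All windows together had a median of 6 CG.

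Pcdh7, a delta-1 protein of neurons, had P18 values of 433, 499 and 384, P75 values of 412, 358 and 465, 6-month values of 1655, 1269 and 1417 and 24-month values of 1048, 1209.9 and 1201. Its 6-month samples lay above all others, its 24-month samples came next, and its P18 and P75 samples overlapped. Pcdh7 did not pass at P75 against P18, with a log2 fold change of -0.09 ± 0.12 (limma adjusted p = 0.589). It rose by 1.81 ± 0.12 at 6 months against P75 (limma adjusted p = 4.01e-08). Its log2 fold change of -0.32 ± 0.12 at 24 months against 6 months did not pass (limma adjusted p = 0.0749). Pcdh7 was called at 24 months against 6 months on leaving out P18 replicate 3 (0.0399); adjusted p ran from 0.0399 to 0.295 over the alternatives. Pcdh11x, the X-linked delta-1 gene, had P18 values of 5.94, 6.78 and 12.1, P75 values of 2, 9.27 and 3.32, 6-month values of 47.1, 45.3 and 27.2 and 24-month values of 8.92, 16.2 and 17.6, with 6-month samples above all others. At 6 months alone did all 3 of its samples reach the minimum value. Pcdh11x did not pass at P75 against P18, with a log2 fold change of -0.80 ± 0.44 (limma adjusted p = 0.155). It rose by 2.96 ± 0.44 at 6 months against P75 (limma adjusted p = 3.69e-05). It fell by 1.44 ± 0.44 at 24 months against 6 months (limma adjusted p = 0.0314). Pcdh11x lost its call at 24 months against 6 months on leaving out 6 months replicate 1 (0.119), 6 months replicate 2 (0.105), 24 months replicate 1 (0.126) or 24 months replicate 2 (0.0655); adjusted p ran from 0.00384 to 0.126 over the alternatives. Pcdh11x was called at P75 against P18 on leaving out P75 replicate 2 (0.0224); adjusted p ran from 0.0224 to 0.494 over the alternatives.

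Pcdh1 had P18 values of 53.5, 58.8 and 94.4, P75 values of 87.2, 85.3 and 70.8, 6-month values of 219, 153 and 153 and 24-month values of 113, 125 and 132, and it also was highest at 6 months without overlap. Pcdh1 did not pass at P75 against P18, with a log2 fold change of 0.27 ± 0.20 (limma adjusted p = 0.293). It rose by 1.08 ± 0.20 at 6 months against P75 (limma adjusted p = 2.71e-04). It did not pass at 24 months against 6 months, with a log2 fold change of -0.48 ± 0.20 (limma adjusted p = 0.0988). Pcdh1 was called at P75 against P18 on leaving out P18 replicate 3 (0.0233); adjusted p ran from 0.0233 to 0.705 over the alternatives. Pcdh1 was called at 24 months against 6 months on leaving out P18 replicate 3 (0.0318), or after quantile normalization (0.0493); adjusted p ran from 0.0318 to 0.373 over the alternatives. Pcdh9, a delta-1 gene, had P18 values of 1907, 1732 and 1543, P75 values of 2134, 1986 and 2391, 6-month values of 3451, 2932 and 3012 and 24-month values of 2969, 3307 and 3321. The 6-month and 24-month samples lay above P75 and overlapped each other. Pcdh9 rose by 0.33 ± 0.10 at P75 against P18 (limma adjusted p = 0.0144). It rose by 0.53 ± 0.10 at 6 months against P75 (limma adjusted p = 3.47e-04). Its log2 fold change of 0.03 ± 0.10 at 24 months against 6 months did not pass (limma adjusted p = 0.855). Pcdh9 lost its call at P75 against P18 on leaving out P75 replicate 3 (0.0727); adjusted p ran from 0.00830 to 0.0727 over the alternatives.

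Pcdh10, a delta-2 protein that guides axon growth, had P18 values of 1734, 1824 and 1636, P75 values of 2436, 2446 and 2766, 6-month values of 3698, 3282 and 3807 and 24-month values of 3659, 4516 and 4226. The samples of P75 lay above those of P18 and below those of 6 months, and 6 and 24 months overlapped. Pcdh10 rose by 0.56 ± 0.09 at P75 against P18 (limma adjusted p = 2.41e-04). It rose by 0.50 ± 0.09 at 6 months against P75 (limma adjusted p = 3.98e-04). A log2 fold change of 0.20 ± 0.09 at 24 months against 6 months did not pass (limma adjusted p = 0.149). Pcdh17, which acts at synapses and on collective axon extension, had P18 values of 425, 467 and 389, P75 values of 523, 448 and 511, 6-month values of 1218, 967 and 1112 and 24-month values of 862, 1028 and 979, with both later ages above both earlier ones. Pcdh17 did not pass at P75 against P18, with a log2 fold change of 0.21 ± 0.11 (limma adjusted p = 0.131). It rose by 1.15 ± 0.11 at 6 months against P75 (limma adjusted p = 6.23e-07). It did not pass at 24 months against 6 months, with a log2 fold change of -0.20 ± 0.11 (limma adjusted p = 0.206).

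Pcdh8, an activity-regulated protein of synapses also called arcadlin, was the delta-2 gene that rose at 24 months. It had P18 values of 374, 334 and 454, P75 values of 579, 669 and 681, 6-month values of 564, 536 and 529 and 24-month values of 748, 840.1 and 931, with 6-month samples below all P75 samples. Pcdh8 rose by 0.74 ± 0.11 at P75 against P18 (limma adjusted p = 1.13e-04). Its log2 fold change of -0.24 ± 0.11 at 6 months against P75 did not pass (limma adjusted p = 0.0891). It rose by 0.62 ± 0.11 at 24 months against 6 months (limma adjusted p = 0.00261). Pcdh8 was called at 6 months against P75 on leaving out P18 replicate 3 (0.0404); adjusted p ran from 0.0404 to 0.227 over the alternatives. Pcdh19, an X-linked gene mutated in a human epilepsy of girls, had P18 values of 406, 433 and 427, P75 values of 595, 649 and 839, 6-month values of 779, 602 and 894 and 24-month values of 805, 951 and 977. Its P75 samples lay above P18, and the 3 later ages overlapped. Pcdh19 rose by 0.70 ± 0.14 at P75 against P18 (limma adjusted p = 8.66e-04). A log2 fold change of 0.12 ± 0.14 at 6 months against P75 did not pass (limma adjusted p = 0.476). The test was not passed at 24 months against 6 months, with a log2 fold change of 0.28 ± 0.14 (limma adjusted p = 0.171). Pcdh18 had P18 values of 101, 96.04 and 102, P75 values of 129, 141 and 164, 6-month values of 180.4, 154 and 179 and 24-month values of 158, 168 and 199.9, in the same order of ages. Pcdh18 rose by 0.52 ± 0.13 at P75 against P18 (limma adjusted p = 0.00477). It did not pass at 6 months against P75, with a log2 fold change of 0.24 ± 0.13 (limma adjusted p = 0.132). Its log2 fold change of 0.03 ± 0.13 at 24 months against 6 months did not pass (limma adjusted p = 0.893).

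Pcdh20 and Pcdh15 stand outside the delta groups. Pcdh20 had P18 values of 381, 350.3 and 456, P75 values of 608, 558 and 663, 6-month values of 889.6, 795 and 861 and 24-month values of 825, 996 and 1086, with P75 above P18 and 6 months above P75 in every sample. Pcdh20 rose by 0.63 ± 0.12 at P75 against P18 (limma adjusted p = 4.92e-04). It rose by 0.48 ± 0.12 at 6 months against P75 (limma adjusted p = 0.00262). A log2 fold change of 0.18 ± 0.12 at 24 months against 6 months did not pass (limma adjusted p = 0.281). Pcdh15, which forms the tip links of inner ear hair cells and is also expressed by oligodendrocyte precursors, had P18 values of 236, 214 and 265, P75 values of 415, 259.6 and 322, 6-month values of 239.7, 223 and 229 and 24-month values of 294, 308 and 280.5. Its highest mean was at P75, with 6-month samples below all P75 samples, and it was the member that fell at 6 months. Pcdh15 rose by 0.46 ± 0.14 at P75 against P18 (limma adjusted p = 0.0159). It fell by 0.50 ± 0.14 at 6 months against P75 (limma adjusted p = 0.00676). The test was not passed at 24 months against 6 months, with a log2 fold change of 0.35 ± 0.14 (limma adjusted p = 0.0864). Pcdh15 lost its call at P75 against P18 on leaving out P18 replicate 2 (0.0707) or P75 replicate 1 (0.101); adjusted p ran from 0.00220 to 0.101 over the alternatives. Pcdh15 was called at 24 months against 6 months on leaving out P75 replicate 1 (0.0455); adjusted p ran from 0.0455 to 0.218 over the alternatives. Pcdh12, a protocadherin of endothelial cells, gave 36 reads over the 12 samples and was not tested.

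**Figure D5:**
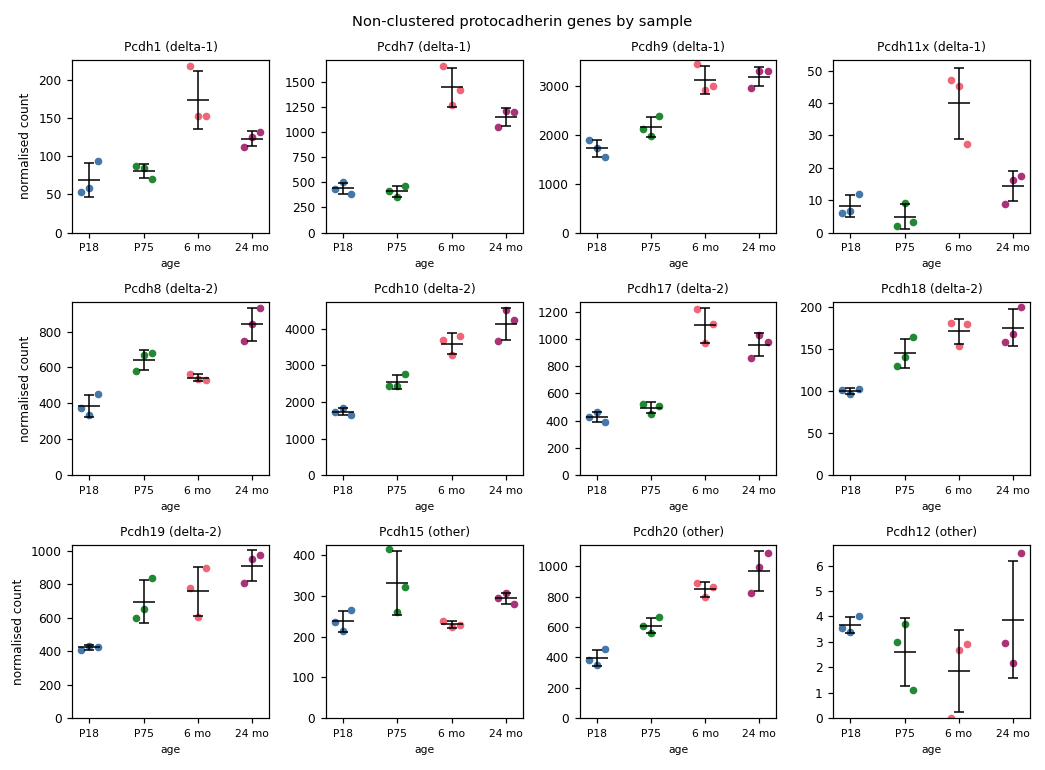
Normalised count of each of the 12 non-clustered protocadherin genes at the 4 ages, with 1 point per sample and the mean ± SD as black bars. Pcdh1, Pcdh7 and Pcdh11x peak at 6 months, Pcdh8 dips there, and Pcdh15 has its highest mean at P75.

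Marker genes of brain cell types were summed in the same samples, as a share of all counts. The 12 neuronal markers took 0.698 to 1.01% in P18 samples, 0.956 to 1.12% in P75 samples, 0.883 to 1.02% in 6-month samples and 0.844 to 0.934% in 24-month samples, and at 6 months against P75 7 rose and 3 fell. Their median log2 fold change in that comparison was 0.34, while 27.1% and 25.4% of all tested genes rose and fell. Their part in the gamma result was not tested. The 10 astrocyte markers took 0.495 to 0.608% in P18 samples, 0.619 to 0.669% in P75 samples, 0.622 to 0.666% in 6-month samples and 0.627 to 0.675% in 24-month samples, and 2 rose and 1 fell at 6 months against P75. The 8 precursor markers took 0.0625 to 0.0709% in P18 samples, 0.0415 to 0.0463% in P75 samples, 0.0397 to 0.0464% in 6-month samples and 0.0334 to 0.0410% in 24-month samples, of which 4 rose and 2 fell in that comparison. Microglial markers, 10 in number, took 0.0281 to 0.0308% in P18 samples, 0.0451 to 0.0510% in P75 samples, 0.0532 to 0.0630% in 6-month samples and 0.0766 to 0.0999% in 24-month samples, and like the beta sums they were higher at each age than at the one before, and their part in the beta result was not tested. The 10 endothelial and mural markers took 0.00289 to 0.00371% in P18 samples, 0.00414 to 0.00469% in P75 samples, 0.00388 to 0.00475% in 6-month samples and 0.00363 to 0.00418% in 24-month samples, of which 3 rose and 1 fell at 6 months against P75. The 10 mature oligodendrocyte markers took 11.02 to 23.1% in P18 samples and 5.71 to 8.15% in P75 samples. Their share was 6.29 to 9.84% in 6-month samples and 6.41 to 8.66% in 24-month samples. Of these markers 0 rose and 7 fell at P75 against P18, where 21.7% of all tested genes rose and 18.7% fell. At 6 months against P75 1 rose and 0 fell. No marker of the 6 lists was at 0 in all samples. Replicate 1 of 6 months, the highest in the gamma genes, had 1.02% neuronal and 6.29% mature oligodendrocyte counts.

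Genes that act on protocadherins were listed beside them. The proteins that set promoter choice in the clusters include the insulator protein CTCF, the cohesin ring and DNA methyltransferases. Of 20 symbols of that list 19 were tested. For P75 against P18 5 rose and 3 fell (26.3% and 15.8%, against 21.7% and 18.7% of all tested genes; median log2 fold change 0.10). For 6 months against P75 10 rose and 2 fell (52.6% and 10.5%, against 27.1% and 25.4% of all tested genes; median log2 fold change 0.23). For 24 months against 6 months 0 rose and 5 fell (0% and 26.3%, against 10.8% and 8.34% of all tested genes; median log2 fold change -0.18). Dnmt3a, a de novo DNA methyltransferase, fell by 0.87 ± 0.09 at P75 against P18 (limma adjusted p = 2.42e-06) and fell by 0.38 ± 0.09 at 6 months against P75 (limma adjusted p = 0.00159). Wapal, which releases cohesin from DNA, rose by 0.97 ± 0.13 at 6 months against P75 (limma adjusted p = 1.83e-05) and fell by 0.48 ± 0.13 at 24 months against 6 months (limma adjusted p = 0.0205).

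All 7 genes of the list of proteases that shed and cleave protocadherins were tested. For P75 against P18 2 rose and 0 fell (28.6% and 0%, against 21.7% and 18.7% of all tested genes; median log2 fold change 0.18). For 6 months against P75 5 rose and 1 fell (71.4% and 14.3%, against 27.1% and 25.4% of all tested genes; median log2 fold change 0.42). For 24 months against 6 months 2 rose and 0 fell (28.6% and 0%, against 10.8% and 8.34% of all tested genes; median log2 fold change 0.09). Adam10, the sheddase of several cadherins, rose by 0.65 ± 0.09 at P75 against P18 (limma adjusted p = 4.53e-05), rose by 0.29 ± 0.09 at 6 months against P75 (limma adjusted p = 0.0132) and rose by 0.30 ± 0.09 at 24 months against 6 months (limma adjusted p = 0.0321). Cytoplasmic partners, among them the actin-regulating WAVE complex, had 16 of 17 genes tested. For P75 against P18 2 rose and 2 fell (12.5% and 12.5%, against 21.7% and 18.7% of all tested genes; median log2 fold change -0.11). For 6 months against P75 5 rose and 4 fell (31.2% and 25%, against 27.1% and 25.4% of all tested genes; median log2 fold change 0.02). For 24 months against 6 months 0 rose and 4 fell (0% and 25%, against 10.8% and 8.34% of all tested genes; median log2 fold change -0.18). Nckap1, a WAVE subunit, rose by 1.52 ± 0.11 at 6 months against P75 (limma adjusted p = 4.76e-08) and fell by 0.75 ± 0.11 at 24 months against 6 months (limma adjusted p = 4.99e-04). Dab1, an adaptor of reelin signalling, fell by 0.45 ± 0.08 at 6 months against P75 (limma adjusted p = 2.34e-04).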

How the data were processed

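RNA of a myelin-enriched fraction was sequenced in 12 samples at 4 ages. The authors deposited a single table of depth-normalised read counts (unit: signal), with 2 decimals. Per the submitters' processing notes, TopHat, HTSeq and DESeq were used with build mm9. Extraction, library type, counting mode and strand are not given in the sources used here. Reads were recovered by dividing each column by the value of 1 read: 100% of low values came out whole within 0.0061. For 3 columns that value differs from 1 by under 1%.

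Genes with a value of 10 in at least 3 of 12 samples (14987 of 21937) were fitted with limma 3.58.1 (R 4.3.3, trend) on log2(value + 1) over all samples, two-sided, with Benjamini-Hochberg adjustment over all tested genes. edgeR 4.0.16 and DESeq2 1.42.0 on the recovered reads, other pseudocounts and filters, quantile normalization, a replicate block and leaving out each sample were alternatives. On the recovered reads edgeR called 5981, 7956 and 3185 genes in the successive comparisons, where limma called 6051, 7859 and 2876. The fits were tested on simulated data. Named were all tested non-clustered genes, the 4 clustered genes with the highest mean per cluster and the largest changes per comparison, and up to 2 genes per list, of which 1 is not reported here. Members and lists were chosen with earlier results of these data known. Floors (3 reads) cover counting error only, whereas the ± values are SDs or SEs from the spread between samples. RefSeq matched 70 of 71 members by symbol and gave their order (GRCm38.p6). Pcdha4-g had no match.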

Additional observations from a re-analysis of the deposited data

How the results depend on the processing

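Of 1482 log2 fold changes of the 25 tested named genes over 20 alternatives, 1430 kept their call and direction, 40 lost and 12 gained a call, and 0 reversed. The 2 lower at P75 against P18 became 1 with a pseudocount of 4, no filter, the stricter filter (a value of 50), edgeR, DESeq2 or the replicate block. The stricter filter left 35 members, of which 25 rose at 6 months against P75, 4 fell at 24 months against 6 months and 35 differed at some age. Of all 12875 genes tested with it, 3791 rose at 6 months against P75 and 1264 fell at 24 months against 6 months. Part of the drops in members is that fewer of them were tested, but Pcdhga6 was still tested and lost its call at 24 months against 6 months. The cause of the other shifts was not tested.

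Leaving out single samples gave 19 to 23 higher and 1 to 4 lower at P75 against P18, 39 to 46 higher and 1 to 2 lower at 6 months against P75, 7 to 14 higher and 3 to 16 lower at 24 months against 6 months, and 54 to 56 at any age. The 7 came without 6 months replicate 2 and the 3 without 6 months replicate 1. Over all tested genes, the 1626 higher became 840 and the 1250 lower became 492 in these fits.

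Replicate numbers are shared between ages in the labels. Deviations of same-numbered samples correlated at -0.185 to 0.165 over 18 pairs, and 3 were above 0.1. Of the 12 samples 6 correlated best with 1 of their own number. These correlations cannot show whether the numbers pair the samples, because each deviation was taken from the mean of only 3 samples. With the replicate block 21, 45 and 12 members were higher and 1, 1 and 13 lower in the successive comparisons. At this depth 13 of 15 alpha genes did not reach the filter, and the cause was not tested.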

Other observations

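Relatives of the protocadherins were listed for comparison. All 25 classical cadherin and catenin genes were tested, which make and anchor adhesive junctions. For P75 against P18 12 rose and 5 fell (48% and 20%, against 21.7% and 18.7% of all tested genes; median log2 fold change 0.36). For 6 months against P75 16 rose and 1 fell (64% and 4%, against 27.1% and 25.4% of all tested genes; median log2 fold change 0.45). For 24 months against 6 months 1 rose and 4 fell (4% and 16%, against 10.8% and 8.34% of all tested genes; median log2 fold change 0.00117). Cdh13, an anchored cadherin without a cytoplasmic part, fell by 0.63 ± 0.18 at P75 against P18 (limma adjusted p = 0.0106), rose by 2.73 ± 0.18 at 6 months against P75 (limma adjusted p = 3.06e-08) and fell by 1.07 ± 0.18 at 24 months against 6 months (limma adjusted p = 0.00162). It had P18 values of 74.9, 72.3 and 102, P75 values of 67.1, 47.3 and 46.4, 6-month values of 442, 302 and 339.6 and 24-month values of 164, 161 and 182, and the 6-month samples lay above all others. Cdh18, a cadherin of neurons, rose by 1.48 ± 0.14 at 6 months against P75 (limma adjusted p = 6.25e-07).

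Of 20 other cadherin superfamily genes, with the giant Fat and Dchs cadherins, the Celsr genes and the calsyntenins, 18 were tested. For P75 against P18 12 rose and 0 fell (66.7% and 0%, against 21.7% and 18.7% of all tested genes; median log2 fold change 0.53). For 6 months against P75 7 rose and 3 fell (38.9% and 16.7%, against 27.1% and 25.4% of all tested genes; median log2 fold change 0.09). For 24 months against 6 months 1 rose and 1 fell (5.56% and 5.56%, against 10.8% and 8.34% of all tested genes; median log2 fold change -4.50e-04). Clstn1, a calsyntenin that links cargo to kinesin, rose by 2.73 ± 0.15 at 6 months against P75 (limma adjusted p = 6.03e-09) and fell by 0.63 ± 0.15 at 24 months against 6 months (limma adjusted p = 0.00898). It had P18 values of 1059.95, 1304 and 1443, P75 values of 1204, 1082 and 870.01, 6-month values of 8292, 6449 and 6239.6 and 24-month values of 3804, 4522 and 5186, with 6-month samples above all others and 24-month samples next. Clstn2 rose by 0.85 ± 0.08 at P75 against P18 (limma adjusted p = 1.43e-06) and rose by 0.61 ± 0.08 at 6 months against P75 (limma adjusted p = 1.31e-05).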
